A study of Homo sapiens with 4 samples.

Results

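The genes described here encode the ligands of the WNT pathway, their receptors and coreceptors, and the secreted proteins that strengthen or block them. They were taken from the deposited expression table by gene symbol. The symbols gave 19 WNT ligands, 10 Frizzled (FZD) receptors, the coreceptors LRP5 and LRP6, 4 R-spondins (RSPO), 3 LGR receptors, 4 secreted Frizzled-related proteins (SFRP) and 4 Dickkopf proteins (DKK), or 46 genes among 58365 rows. WNT5A had 2 rows, of which the row with the higher mean was used and the other was listed at 0.

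RNA-seq was performed at day 8 of hematopoietic differentiation of the established cell line H1, a line of human embryonic stem cells (hESCs), to ask what TGFβ blockade does to transcription during the emergence of blood from endothelium. All cells received activinA and BMP4 for 2 days and then VEGF and bFGF for 3 days. For the last 3 days VEGF and bFGF were continued with vehicle (DMSO, 2 libraries, replicates 1 and 2) or with SB431542, an inhibitor of TGFβ type I receptors (SB, 2 libraries, replicates 1 and 2). The study describes collection of CD31+ cells, a step that the sample labels do not mention. Its methods state the dose of SB431542, which the labels do not give. All 4 libraries came from this 1 line, and the labels do not say whether they came from separate differentiation cultures. The study speaks of independent experiments for its analyses in general and not for these libraries, so the p-values below measure the spread between libraries, which may be technical. Levels are FPKM (fragments per kilobase and library size) and are given in the order replicate 1, replicate 2.

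WNT ligands are secreted lipid-modified proteins that bind a Frizzled receptor, alone or together with LRP5 or LRP6. With the coreceptor bound, β-catenin is spared from degradation and activates TCF/LEF target genes, whereas ligands such as WNT5A and WNT11 are best known for β-catenin-independent signaling. R-spondins act through LGR receptors to keep Frizzled proteins on the cell surface, SFRPs capture WNT ligands, and DKK1 blocks LRP5 and LRP6. In hESC cultures WNT signaling directs mesoderm formation and takes part in the specification of hemogenic endothelium.

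The depth of the libraries, estimated from the value of 1 fragment in each, ranged from 77.3% (SB replicate 1) to 100% of the deepest (SB replicate 2), and 1 fragment on a transcript of 1 kilobase was worth 0.0432 to 0.0559 FPKM. They also separated by replicate number, which is given beside the genes it touches. Endothelial markers were expressed in all libraries, with 10 of 10 markers above the level tested and a sum of 2124 to 2518 FPKM in DMSO and 2143 to 2498 FPKM in SB. Of the endothelial markers, CLDN5 was at 121 and 79.4 FPKM in DMSO and at 231 and 177 FPKM in SB. CDH5 was at 273 and 246 FPKM against 224 and 202 FPKM, EMCN was slightly higher in SB, and the others overlapped. Markers of other cell types also differed between the groups. The sum of 10 hematopoietic markers was 407 and 350 FPKM in DMSO and 744 and 636 FPKM in SB, although PTPRC, which encodes the leukocyte antigen CD45, did not exceed 0.202 FPKM. The sum of 10 endoderm and liver markers was 334 and 331 FPKM in DMSO and 78.0 and 48.8 FPKM in SB. SOX17, which the paper also names as a factor of endothelial identity, held most of this sum in SB replicate 1. It overlapped between the groups, at 53.3 and 17.5 FPKM in DMSO and at 49.3 and 17.3 FPKM in SB. FOXA1 and ALB also overlapped, and the other markers of this list were lower in SB. The sum of 10 mesenchymal markers was 370 and 323 FPKM against 179 and 175 FPKM, and that of 10 epithelial markers was 258 and 254 FPKM against 117 and 125 FPKM. Of 10 cardiac markers 6 were tested, and 4 of them were lower at an unadjusted p under 0.05, with a median log2 fold change of -1.52. The sum of the cardiac markers, 144 and 139 FPKM against 117 and 130 FPKM, was held mostly by MYL4, which was higher in SB (61.5 and 79.5 FPKM against 91.8 and 111 FPKM), while ACTC1 was at 9.62 and 11.9 FPKM against 0.519 and 0.677 FPKM. The sum of 10 pluripotency markers was 124 and 141 FPKM against 160 and 174 FPKM, with NANOG and SOX2 near 0. It was held mostly by LIN28A, DNMT3B and DPPA4. Of the 7 that were tested, 4 were higher in both SB libraries (21.5% of all tested genes), among them LIN28A and DNMT3B. TDGF1 and ZFP42 were lower in both (16.0%), and DPPA4 overlapped. No marker was listed at 0 in all 4 libraries. In bulk RNA, fewer cells of a type and less RNA per cell cannot be told apart, and the part of these cell type differences in the results below was not tested.

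Of the 46 genes, 22 reached a mean of 1 FPKM in a group and were tested with limma on log2(FPKM + 1), and 24 did not. FZD7 and LGR4 were higher in SB, whereas WNT5A, DKK1, FZD1 and RSPO4 were lower, at differences between 0.50 and 1.14 on the log2 scale. None of the 22 passed the adjustment over all 14909 tested genes (adjusted p between 0.263 and 0.999), at which 20 genes, or 0.134%, passed. At an unadjusted p under 0.05, 6 members were counted, 2 higher and 4 lower, against 9.96% of all tested genes (4.80% higher and 5.16% lower). This count changed with the library that was left out, as did the share over all tested genes. The 6 members kept their sign without single libraries. Their log2 fold changes moved most for RSPO4 (-1.26 to -0.50) and least for WNT5A (-0.72 to -0.64). Only FZD7 among the 22 differed by at least 1 on the log2 scale, against 3.72% of all tested genes. The 1 added to each FPKM makes this measure smaller for low genes. As a ratio of group means, FZD7 was 2.38-fold higher, and FZD10, RSPO4 and WNT5A were 2.92-fold, 2.26-fold and 2.10-fold lower. The libraries of the groups did not overlap for 9 of the 22, 2 higher (21.5% of all tested genes) and 7 lower (16.0%). The median log2 fold change of the 22 was -0.07, compared with 0.04 over all tested genes. The groups overlapped for the other 13, as the plot of levels by library shows.

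**Figure D1:**
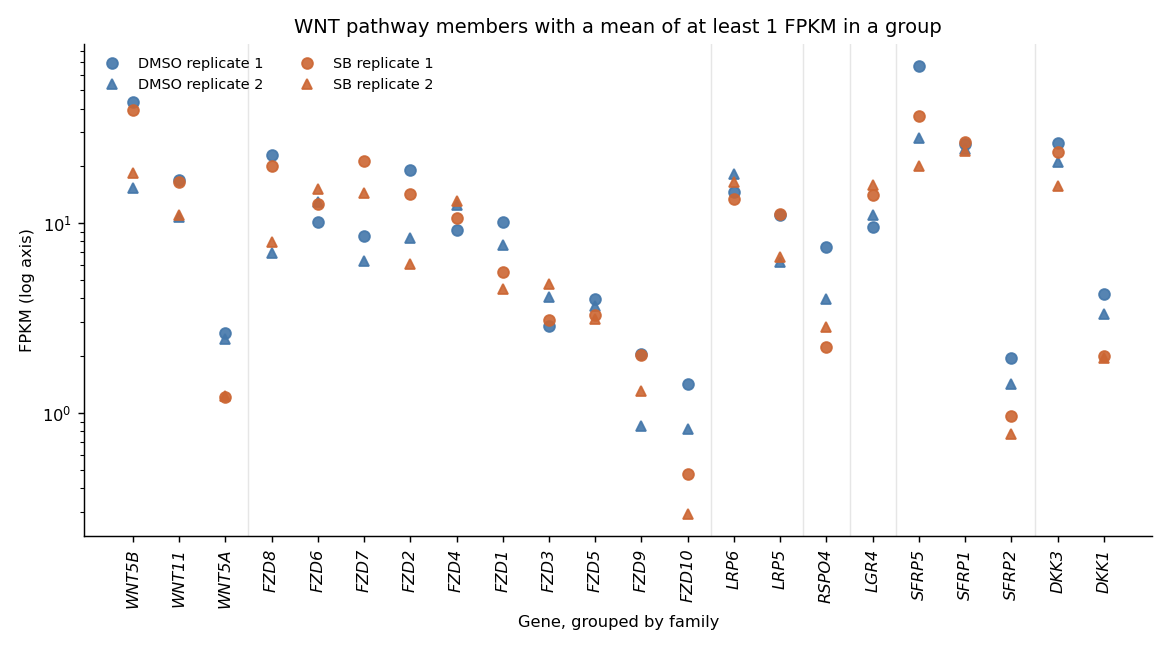
Level in FPKM (log axis) of the 22 members with a mean of at least 1 FPKM in a group, grouped by family, with 1 point per library (DMSO blue, SB orange, circles replicate 1, triangles replicate 2). FZD7 and LGR4 have both SB points above both DMSO points, while WNT5A, FZD1, FZD5, FZD10, RSPO4, SFRP2 and DKK1 have both below.

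**Figure D2:**
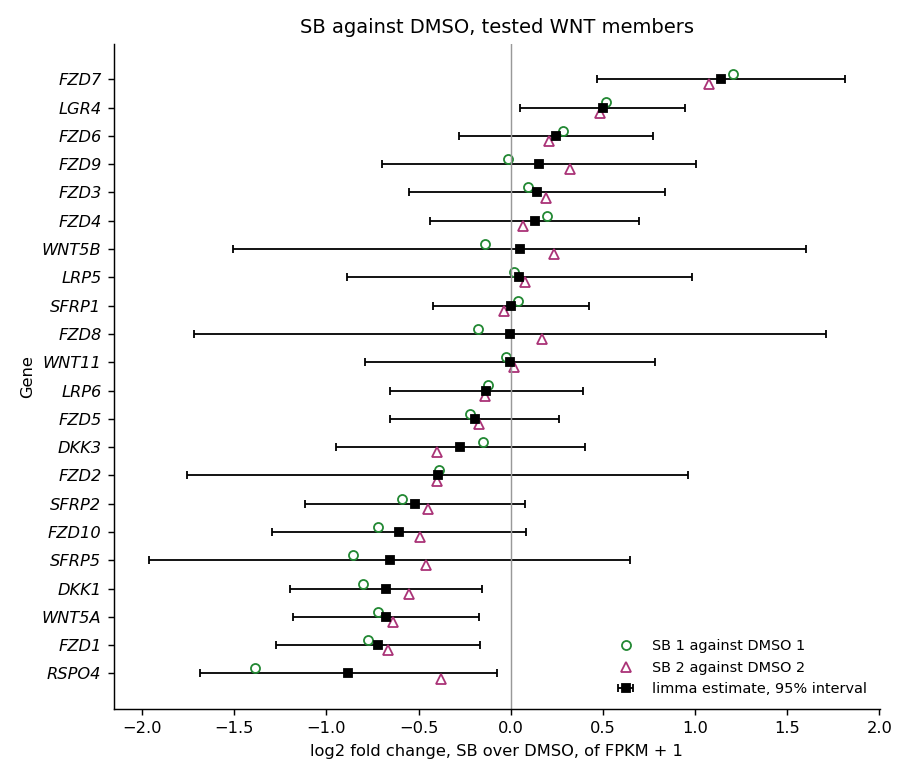
log2 fold change (SB over DMSO, of FPKM + 1) of the 22 tested members, with the limma estimate as a black square, its 95% interval as a line and the differences within replicate 1 (green circles) and within replicate 2 (purple triangles). The intervals of FZD7 and LGR4 lie above 0 and those of DKK1, WNT5A, FZD1 and RSPO4 lie below it, before any adjustment for the number of genes.

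The promoter sequences of 5 members are shown here, so that their upstream sequence can be read beside their levels. They are the 250 bases before the annotated start from RefSeq (GRCh38.p14), cut short for FZD1 (181 bases) and RSPO3 (183 bases), where an exon of the gene itself begins earlier. Capitals mark CAGAC, the core of SMAD sites, or CTTTG, the core of TCF/LEF sites, on either strand (GTCTG and CAAAG in reverse), and no such match overlapped another.
FZD1 (chr7:91264183-91264363, plus strand): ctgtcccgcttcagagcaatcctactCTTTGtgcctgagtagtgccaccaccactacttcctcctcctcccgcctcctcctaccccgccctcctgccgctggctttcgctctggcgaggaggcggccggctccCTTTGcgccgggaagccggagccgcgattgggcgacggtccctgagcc
LGR4 (chr11:27472791-27473040, minus strand): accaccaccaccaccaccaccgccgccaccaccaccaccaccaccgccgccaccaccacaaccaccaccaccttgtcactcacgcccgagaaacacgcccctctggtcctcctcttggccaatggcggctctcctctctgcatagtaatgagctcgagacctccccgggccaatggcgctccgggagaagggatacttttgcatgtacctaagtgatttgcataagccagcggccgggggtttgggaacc
RSPO3 (chr6:127118421-127118603, plus strand): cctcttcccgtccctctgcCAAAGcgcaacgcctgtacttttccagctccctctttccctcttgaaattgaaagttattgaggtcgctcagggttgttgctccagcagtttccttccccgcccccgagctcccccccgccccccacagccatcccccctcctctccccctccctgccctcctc
RSPO4 (chr20:1002312-1002561, minus strand): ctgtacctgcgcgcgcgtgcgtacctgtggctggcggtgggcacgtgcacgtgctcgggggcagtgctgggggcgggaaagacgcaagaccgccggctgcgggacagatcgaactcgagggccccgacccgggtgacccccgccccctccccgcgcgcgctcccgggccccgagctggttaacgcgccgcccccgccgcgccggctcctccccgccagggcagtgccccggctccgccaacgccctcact
DKK1 (chr10:52314031-52314280, plus strand): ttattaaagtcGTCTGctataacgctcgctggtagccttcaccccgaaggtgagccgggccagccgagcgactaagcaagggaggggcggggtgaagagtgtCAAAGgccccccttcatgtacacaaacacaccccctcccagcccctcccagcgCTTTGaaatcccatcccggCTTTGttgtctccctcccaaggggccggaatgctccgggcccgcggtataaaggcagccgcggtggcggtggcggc
In these windows DKK1 held 1 CAGAC and 3 CTTTG matches, FZD1 held 2 CTTTG matches and RSPO3 held 1, while neither motif was found for LGR4 and RSPO4. Exons of other genes overlap the windows of LGR4 (AC100771.2) and DKK1 (PRKG1-AS1). Of the printed genes, RSPO3 was below the level tested. A promoter was at hand for 31 of the 46 members, and FZD7 was not among them. WNT5A is not printed, and its window held neither motif. The following counts use the uncut windows of 250 bases, in which FZD1 also held 1 match of the first motif. CAGAC was found in 14 of them (45.2%), compared with 42.8% of 27305 genes, and CTTTG in 6 (19.4%), compared with 47.2%. The member promoters had a median GC content of 70.8%, compared with 58% over all genes. A match describes letters in the window and not a bound site.

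Among the ligands, WNT5B and WNT11 made up most of the WNT RNA in both groups. Together they held 82.6% to 94.9% of the summed FPKM of the 19 ligands in each library. WNT5B, a relative of WNT5A, was at 43.3 and 15.3 FPKM in DMSO and at 39.3 and 18.2 FPKM in SB. WNT11, which guides cell movements in gastrulation and early heart formation, was at 16.8 and 10.8 FPKM in DMSO and at 16.5 and 10.9 FPKM in SB. For both ligands the groups overlapped and replicate 1 exceeded replicate 2 in both groups. The log2 fold changes were 0.05 (95% interval -1.51 to 1.60) for WNT5B and -0.0050 (-0.79 to 0.78) for WNT11, so that a difference of up to about these bounds was not detectable with 2 libraries a group. WNT11 has exons that overlap those of another gene on the opposite strand.

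WNT5A (ENSG00000114251.14, GRCh38 chr3:55465715-55489945), the ligand best known for planar polarity and directed cell movement, was the third most abundant ligand and the only tested ligand whose groups did not overlap. It was at 2.65 and 2.45 FPKM in DMSO (2.55 ± 0.135, SD, n = 2) and at 1.21 and 1.22 FPKM in SB (1.22 ± 0.00421, SD, n = 2). Both SB libraries lay below both DMSO libraries, and replicates differed little. The log2 fold change was -0.68 (SE 0.19, limma adjusted p = 0.359), with -0.72 within replicate 1 and -0.64 within replicate 2.

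The other 16 ligands were too low to test. Of these, 6 had a mean between 0.1 and 1 FPKM in the higher group. WNT9B, a ligand of kidney and facial development, was the highest of them at 0.935 and 0.938 FPKM in DMSO, and it was at 0.197 and 0 FPKM in SB. WNT2B was at 0.893 and 0.807 FPKM in DMSO and at 0.476 and 0.542 FPKM in SB. WNT3, a ligand of primitive streak formation, was at 0.629 and 0.568 FPKM in DMSO and at 0.546 and 0.388 FPKM in SB. In these 3 genes, and in WNT16 and WNT9A, both SB libraries were lower than both DMSO libraries, whereas WNT8B overlapped. WNT2B shares exon positions with ST7L on the opposite strand. Another 9 ligands did not reach a mean of 0.1 FPKM in a group, and WNT1 was listed at 0 in all libraries. In DMSO WNT2 was listed at 0, and in SB it was at 0.0683 and 0.0778 FPKM, values too low to call a difference.

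All 10 Frizzled receptors were expressed at a level that could be tested. Their sum overlapped between the groups, while FZD7 was higher and FZD1, FZD5 and FZD10 were lower in both SB libraries. The summed level was 89.9 and 64.0 FPKM in DMSO and 92.7 and 70.5 FPKM in SB. FZD7 (ENSG00000155760.2, GRCh38 chr2:202034587-202038445), a receptor known for its high level in undifferentiated hESCs, was at 8.58 and 6.34 FPKM in DMSO (7.46 ± 1.59, SD, n = 2) and at 21.1 and 14.4 FPKM in SB (17.8 ± 4.69, SD, n = 2). The lower SB library lay above the higher DMSO library by 5.87 FPKM, which was more than the distance between the DMSO replicates (2.24 FPKM) and less than that between the SB replicates (6.63 FPKM). The mean level was 2.38-fold higher in SB, and the log2 fold change was 1.14 (SE 0.26, limma adjusted p = 0.263), with 1.21 within replicate 1 and 1.07 within replicate 2. FZD7 took 9.54% and 9.90% of the Frizzled sum in DMSO and 22.7% and 20.5% in SB. It was therefore the sixth of the 10 receptors in both DMSO libraries, the first in SB replicate 1 and the second in SB replicate 2.

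FZD1 (ENSG00000157240.3, GRCh38 chr7:91264364-91271326), whose promoter is printed above, differed in the other direction. It was at 10.1 and 7.68 FPKM in DMSO (8.90 ± 1.72, SD, n = 2) and at 5.50 and 4.48 FPKM in SB (4.99 ± 0.725, SD, n = 2). Both SB libraries were below both DMSO libraries. The log2 fold change was -0.72 (SE 0.21, limma adjusted p = 0.374), with -0.77 within replicate 1 and -0.67 within replicate 2. FZD1 took 11.3% and 12.0% of the Frizzled sum in DMSO and 5.93% and 6.35% in SB.

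FZD10 and FZD5 were also lower in both SB libraries, but neither reached an unadjusted p under 0.05 with limma. The mean of FZD10 was 2.92-fold lower in SB, at a low level at which the log2 scale used here understates the change. FZD10 was at 1.43 and 0.824 FPKM in DMSO and at 0.475 and 0.295 FPKM in SB (log2 fold change -0.61, SE 0.26, limma adjusted p = 0.571). FZD5, a receptor of yolk sac vessel formation in the mouse, was at 3.97 and 3.65 FPKM in DMSO and at 3.26 and 3.13 FPKM in SB (log2 fold change -0.20, SE 0.18, limma adjusted p = 0.831). The groups did not overlap for either receptor, but the step between them was of the size of the replicate spread.

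The other 6 Frizzled receptors overlapped between the groups. FZD8 was at 22.7 and 6.97 FPKM in DMSO and at 19.9 and 7.95 FPKM in SB, and FZD2 was at 18.9 and 8.35 FPKM and at 14.2 and 6.08 FPKM. In both genes each replicate 1 was far above its replicate 2. FZD4, the receptor of Norrin in retinal vessels and expressed by endothelium, was at 9.18 and 12.4 FPKM in DMSO and at 10.7 and 13.0 FPKM in SB. FZD6 was at 10.1 and 12.9 FPKM in DMSO and at 12.5 and 15.0 FPKM in SB, and FZD3 was at 2.85 and 4.07 FPKM and at 3.10 and 4.80 FPKM. These 3 receptors were lower in replicate 1 than in replicate 2 in both groups. FZD9 was at 2.04 and 0.850 FPKM in DMSO and at 2.01 and 1.31 FPKM in SB. The log2 fold changes of the 6 lay between -0.40 (FZD2) and 0.25 (FZD6). Exons of FZD4, FZD6 and FZD8 overlap those of PRSS23, BAALC-AS1 and MIR4683.

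The coreceptors, which relay the β-catenin branch, had summed levels of 25.6 and 24.3 FPKM in DMSO and of 24.5 and 22.9 FPKM in SB. LRP6 was at 14.6 and 18.1 FPKM in DMSO and at 13.3 and 16.4 FPKM in SB, a log2 fold change of -0.13 (95% interval -0.66 to 0.39). LRP5 was at 11.0 and 6.20 FPKM in DMSO and at 11.2 and 6.58 FPKM in SB, a log2 fold change of 0.05 (95% interval -0.89 to 0.98). For both genes the groups overlapped, and the replicate numbers differed in opposite directions.

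Summed R-spondin RNA was lower and LGR4 RNA was higher in SB, whereas LGR5 and LGR6, which were too low to test, were lower. The summed R-spondin level was 8.89 and 5.43 FPKM in DMSO and 2.28 and 2.88 FPKM in SB, and that of the LGR receptors was 9.96 and 11.4 FPKM in DMSO and 14.1 and 15.8 FPKM in SB. These were the only families of the 7 whose sums did not overlap between the groups, as the plot of family sums shows. Among all tested genes, 21.5% were higher and 16.0% were lower with no overlap. The sums were held mostly by RSPO4 and LGR4.

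**Figure D3:**
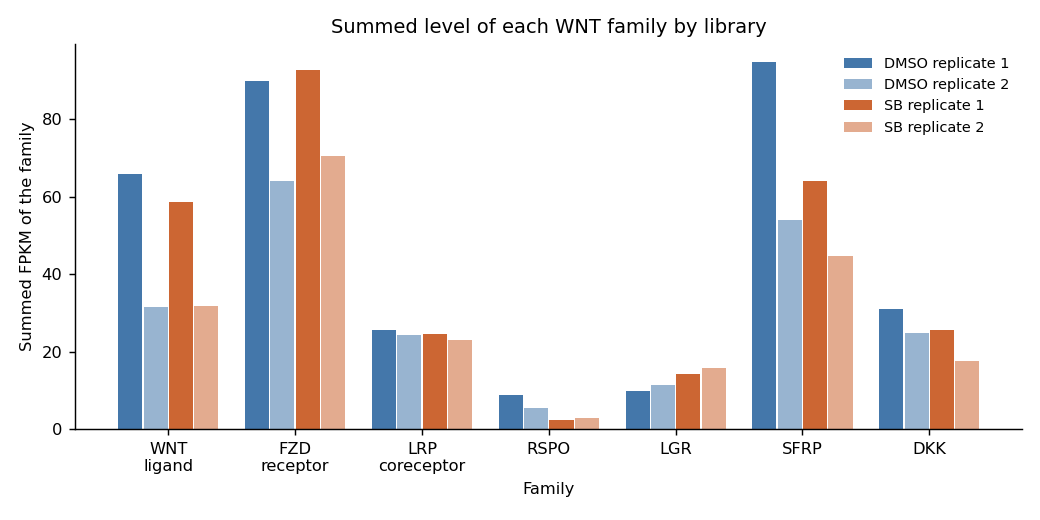
Summed level (FPKM) of each of the 7 families in each library (DMSO blue, SB orange, replicate 2 in the lighter shade), on a linear axis from 0. The R-spondin bars are lower and the LGR bars higher in both SB libraries, while in the WNT, FZD and SFRP families the bars of replicate 1 exceed those of replicate 2 in both groups.

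RSPO4 (ENSG00000101282.8, GRCh38 chr20:958452-1002264), the R-spondin of nail formation, made up 72.9% to 98.3% of the R-spondin sum. It was at 7.42 and 3.96 FPKM in DMSO (5.69 ± 2.45, SD, n = 2) and at 2.22 and 2.83 FPKM in SB (2.52 ± 0.428, SD, n = 2). Both SB libraries were below both DMSO libraries, although the DMSO replicates were far apart. The log2 fold change was -0.88 (SE 0.31, limma adjusted p = 0.460), with -1.39 within replicate 1 and -0.38 within replicate 2, so that its size depended on the replicate. Without DMSO replicate 1 or SB replicate 1 the value was smaller, down to -0.50.

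RSPO3 (ENSG00000146374.13, GRCh38 chr6:127118604-127197765), an R-spondin of vascular development, was below the level tested but had a larger ratio of group means than any tested member. It was at 1.01 and 0.794 FPKM in DMSO, approximately 59.0 and 44.6 fragments, and at 0.0632 and 0.0319 FPKM in SB, approximately 3.05 and 1.99 fragments. The mean level was 19.0-fold lower in SB, and between 14.3-fold and 28.3-fold lower when single libraries were left out. In a fit with no filter on low values its limma adjusted p was 0.300. RSPO2, an R-spondin of limb and lung development, was at 0.453 and 0.676 FPKM in DMSO and at 0 and 0.0175 FPKM in SB, where it rested on approximately 1.26 fragments and no ratio is given. RSPO1 was listed at 0 in all libraries.

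LGR4 (ENSG00000205213.13, GRCh38 chr11:27365961-27472775), the most widely expressed R-spondin receptor, made up 96.1% to 99.8% of the LGR sum. It was at 9.56 and 11.0 FPKM in DMSO (10.3 ± 1.01, SD, n = 2) and at 14.1 and 15.7 FPKM in SB (14.9 ± 1.17, SD, n = 2). Both SB libraries were above both DMSO libraries, with a mean 1.45-fold higher. The log2 fold change was 0.50 (SE 0.17, limma adjusted p = 0.457), with 0.51 within replicate 1 and 0.48 within replicate 2. LGR5, a stem cell receptor of intestine and itself a target of WNT signaling, was at 0.313 and 0.275 FPKM in DMSO and at 0.0428 and 0.0178 FPKM in SB, where it rested on approximately 3.53 and 1.90 fragments. Its mean was 9.72-fold lower in SB, and between 6.88-fold and 16.5-fold lower when single libraries were left out. Exons of LGR5 overlap those of AC078860.1 on the opposite strand. LGR6 did not exceed 0.0955 FPKM.

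Among the secreted inhibitors, SFRP5, SFRP1 and DKK3 were the most abundant and overlapped between the groups. SFRP5, an inhibitor expressed in foregut endoderm and heart progenitors, was at 66.7 and 27.8 FPKM in DMSO and at 36.4 and 20.0 FPKM in SB. Within each replicate number it was lower in SB. On the log2 scale, however, the replicates differed by 1.23 in DMSO and by 0.83 in SB, which was more than the groups did. The log2 fold change was -0.66 (SE 0.50, limma adjusted p = 0.785). Without DMSO replicate 1 it was -0.042, without SB replicate 2 it was -0.24, without SB replicate 1 it was -1.07 and without DMSO replicate 2 it was -1.27. SFRP1 was at 26.1 and 24.6 FPKM in DMSO and at 26.8 and 24.0 FPKM in SB, a log2 fold change of 0.0020 (95% interval -0.42 to 0.43). SFRP2, which is expressed in mesenchyme, was at 1.95 and 1.41 FPKM in DMSO and at 0.960 and 0.770 FPKM in SB, with no overlap between the groups (log2 fold change -0.52, SE 0.23, limma adjusted p = 0.573). SFRP4 did not exceed 0.0953 FPKM.

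DKK1 (ENSG00000107984.9, GRCh38 chr10:52314296-52318042), which blocks LRP5 and LRP6 and is itself a β-catenin target, was lower in SB. It was at 4.21 and 3.31 FPKM in DMSO (3.76 ± 0.632, SD, n = 2) and at 1.98 and 1.94 FPKM in SB (1.96 ± 0.0290, SD, n = 2). Both SB libraries were below both DMSO libraries and close to each other. The log2 fold change was -0.68 (SE 0.20, limma adjusted p = 0.374), with -0.80 within replicate 1 and -0.55 within replicate 2. Exons of DKK1 overlap those of PRKG1-AS1 on the opposite strand, and without strand in the counting their reads cannot be told apart. DKK2 was at 0.473 and 0.531 FPKM in DMSO and at 0.0152 and 0.123 FPKM in SB, where it rested on approximately 0.986 and 10.3 fragments. Its mean was 7.29-fold lower in SB, but 4.09-fold lower without SB replicate 1 and 33.2-fold lower without SB replicate 2. DKK3, a divergent relative that does not block the coreceptors in the manner of DKK1, was at 26.4 and 21.0 FPKM in DMSO and at 23.7 and 15.6 FPKM in SB, with overlap between the groups (log2 fold change -0.27, SE 0.26). DKK4 was listed at 0 in all libraries.

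The members of low level differed between the groups mostly in the direction of less RNA in SB. Of 10 members with a mean between 0.1 and 1 FPKM in the higher group, 9 were lower in both SB libraries and none was higher, and 6 had a mean at least 3-fold lower (RSPO3, RSPO2, WNT9B, LGR5, DKK2 and WNT16). WNT16 was 2.36-fold lower without DMSO replicate 2 and 2.70-fold lower without SB replicate 2. WNT9B was 4.74-fold lower without SB replicate 2 and listed at 0 in that library. Among 2657 protein-coding genes of the same level, 29.4% were lower with no overlap, 15.6% were higher with no overlap and 16.1% were at least 3-fold lower. With the exception of WNT2B, each of the 10 members rested on at most approximately 59.0 fragments in a library. The median log2 fold changes of the tested endoderm and liver, mesenchymal, epithelial and cardiac markers were -2.05, -0.86, -1.17 and -1.52, and their part in these values was not tested. Of the 14 members with a mean below 0.1 FPKM in each group, 12 overlapped, LGR6 was lower and WNT2 higher in SB, and 3 were listed at 0 in all libraries (WNT1, RSPO1 and DKK4).

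**Figure D4:**
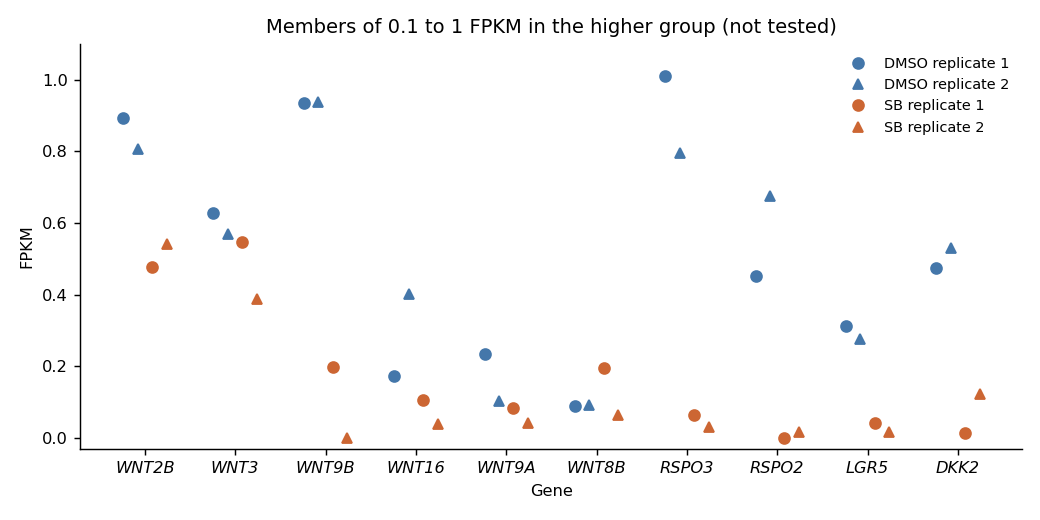
Level in FPKM (linear axis) of the 10 members with a mean between 0.1 and 1 FPKM in the higher group, with 1 point per library (DMSO blue, SB orange, circles replicate 1, triangles replicate 2). In 9 of the 10 genes both SB points lie below both DMSO points, with RSPO3 at 0.0632 and 0.0319 FPKM against 1.01 and 0.794 FPKM, and WNT8B is the exception.

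Most tested members differed by replicate number in the same direction in both groups. Of the 22 tested members, 15 were higher in replicate 1 than in replicate 2 in both groups and 5 were lower in both. Over all 14909 tested genes, 5305 were higher and 6293 were lower in replicate 1 in both groups. The log2 difference between replicates in DMSO and that in SB had a Pearson's r of 0.888 across the 22 genes. The difference increased with the mean GC content of the annotated transcripts, with a Spearman's rho of 0.885 in DMSO and 0.753 in SB across the 22 genes, and of 0.649 and 0.563 across 13695 tested genes with a known GC content. Genes are not independent replicates, and each of these values rests on a single pair of libraries, so they are given as a description. WNT5B (60.1% GC), FZD8 (64.6%), FZD2 (64.9%) and SFRP5 (62.8%) were the members that differed most between replicates, whereas FZD3 (38.7%) and FZD6 (40.5%) differed in the opposite direction. Of the 6 members at an unadjusted p under 0.05, WNT5A, FZD1, LGR4, DKK1 and FZD7 had a GC content between 44.1% and 52.8%, and RSPO4 had 63.3%.

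**Figure D5:**
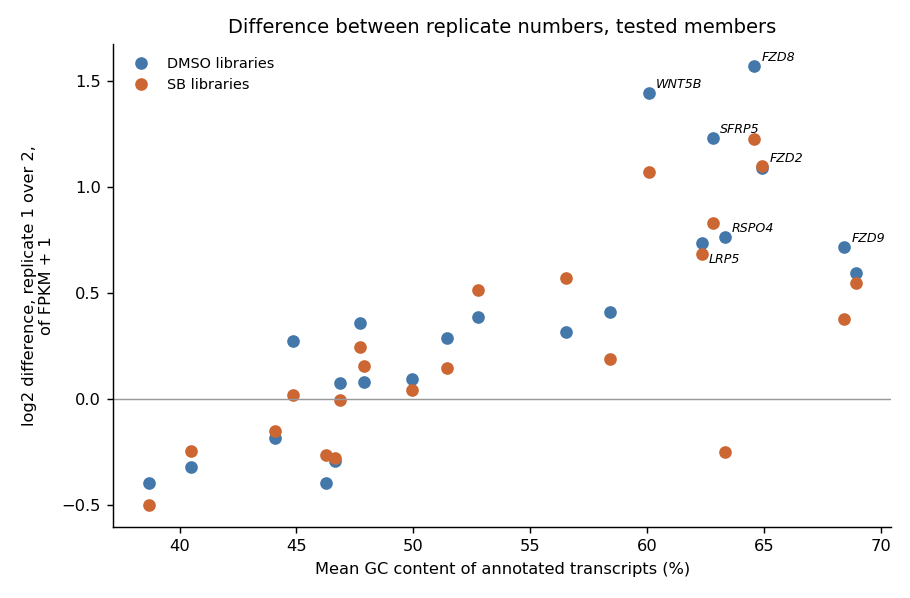
Difference between replicate 1 and replicate 2 (log2 of FPKM + 1) of the 22 tested members within DMSO (blue) and within SB (orange), against the mean GC content of each gene's annotated transcripts in percent. Points rise from below 0 at the lowest GC content to above 1 for WNT5B, FZD8 and FZD2, in DMSO and SB alike, and RSPO4 in SB lies below the others of its GC content.

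The rest of the pathway was examined in 7 lists with 87 genes that are not members, of which 71 were tested. At an unadjusted p under 0.05 4 genes were counted, all lower in SB (9.96% of all tested genes in either direction and 5.16% lower), and the median log2 fold change of the 71 was -0.12. The groups did not overlap in 9 higher genes (21.5% of all tested genes) and in 17 lower genes (16.0%). SOST, which encodes sclerostin, a secreted inhibitor that binds LRP5 and LRP6, was the 1 gene that passed the adjustment. It was at 24.9 and 20.8 FPKM in DMSO and fell to 1.24 and 1.01 FPKM in SB (log2 fold change -3.49, SE 0.19, limma adjusted p = 0.0232). Without any single library SOST kept a log2 fold change between -3.61 and -3.36 but missed the threshold, at an adjusted p between 0.0706 and 0.123, and with no filter on low values it was at 0.300. Per kilobase, both DMSO libraries held more SOST than DKK1 RNA, and both SB libraries held less. GPC3, a cell surface proteoglycan that binds WNT ligands, was at 14.8 and 16.2 FPKM in DMSO and at 3.26 and 2.83 FPKM in SB, a log2 fold change of -2.03 (limma adjusted p = 0.0642), and it was the 1 counted gene of 11 tested other receptors and surface proteins.

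Genes of secretion, polarity and intracellular signaling held no counted gene. None of 7 genes of WNT secretion, 9 tested genes of planar polarity, 19 tested genes of the cytoplasmic pathway and 11 nuclear genes reached an unadjusted p under 0.05, and the medians of these lists lay between -0.15 and 0.06 on the log2 scale. CTNNB1, which encodes β-catenin and was chosen after its values were seen, was at 135 and 177 FPKM in DMSO and at 132 and 162 FPKM in SB. Of 12 tested targets of the pathway, 6 were lower in both SB libraries (16.0% of all tested genes) and none was higher in both (21.5%), with a median log2 fold change of -0.23. TNFRSF19, a receptor of the TNF family, was at 1.76 and 2.16 FPKM in DMSO and at 0.354 and 0.860 FPKM in SB (limma adjusted p = 0.369). AXIN2, the usual readout of β-catenin signaling and also chosen after its values were seen, was at 6.25 and 5.13 FPKM in DMSO and at 4.19 and 4.32 FPKM in SB, a log2 fold change of -0.34 (limma adjusted p = 0.679). The targets SP5 and MYC, chosen in the same way, went in the other direction. Both were higher in SB within each replicate number, with overlap between the groups (log2 fold changes 0.25 and 0.40).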

How the data were processed

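The authors deposited FPKM values, 1 column per library, made from RNA-seq by a service company; no raw counts were used here. The submitters' processing notes name BWA, Bowtie, RSEM and hg19 with no role, whereas 95.5% of the row identifiers were found in GENCODE 29 on GRCh38, 99.8% of them at the same position, so coordinates are on GRCh38, counted from 1. The sources used here do not give the strand setting of the counting. Depth was estimated from the smallest steps between values of genes with 1 transcript over 2000 nt, and fragments per gene, computed on the longest transcript, are approximate and cover counting error only.

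Genes with a mean of at least 1 FPKM in a group were tested on log2(FPKM + 1), a scale that understates the change of low genes, with limma 3.58.1 in R 4.3.3 (empirical Bayes with trend, group as the only term, two-sided, Benjamini-Hochberg over 14909 genes, threshold 0.05). The script was tested on simulated data. The 46 members and all lists were chosen with earlier results of these data known. Members that could be tested are given with each library, those below by counts, range and the highest of each family, and listed genes by the smallest unadjusted p under 0.05. Of the listed genes, 1 is not reported here. Overlapping exons were found for 8 of 45 members checked. Alternatives were a replicate block, a pseudocount of 0.1, no filter, a stricter filter (5 FPKM or more in 2 or more libraries), quantile and upper-quartile scaling and the removal of each library.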

Additional observations from a re-analysis of the deposited data

How the results depend on the processing

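With the replicate number as a replicate block, 4 members passed the adjustment (FZD7 and LGR4 higher, FZD1 and SFRP5 lower), against 10.5% of all tested genes, 10 of 22 members and 23 of 71 list genes had an unadjusted p under 0.05, against 30.4% of all tested genes, and 1564 genes passed in all. The labels do not say what a number shares, and with 2 pairs the pairing could not be established; deviations of same-numbered libraries correlated at 0.528 across 14909 genes. The limits are the 2 libraries a group and the low depth behind members under 1 FPKM. No member passed the adjustment under any other alternative. With a pseudocount of 0.1, FZD7 (1.23), RSPO4 (-1.09), FZD10 (-1.32) and WNT5A (-1.01) differed by 1 or more on the log2 scale. The share of all genes at this size was not computed for this setting. Without a filter 12 of 43 members had an unadjusted p under 0.05 with limma, against 2739 of 29447 genes (9.30%), and 0 genes passed the adjustment. With the filter of 5 FPKM 3 of 14 members had an unadjusted p under 0.05, against 9.04% of all genes tested there. The median of the 14 was -0.0013. The median of the members was -0.11 under quantile normalization, where 31 genes passed, and -0.11 under upper-quartile scaling. Without each library in turn, fitted on the assumption that a lone sample varies like the other group, 0 to 8 members had an unadjusted p under 0.05, 1 to 2 differed by at least 1, the median lay between -0.39 and 0.0036, 0 to 16 genes passed (0 without DMSO replicate 1, where 1101 had an unadjusted p under 0.05 with limma), and 3 to 8 list genes had an unadjusted p under 0.05. The cause of these changes was not tested.

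Of the 22 tested members 11 kept their sign in each alternative that gave them a value, including the 6 at an unadjusted p under 0.05. For 5 of the 11 these were 10 alternatives, and for 6 (WNT5A, DKK1, RSPO4, FZD5, FZD10 and SFRP2), which the filter of 5 FPKM removed, they were 9. SFRP5 kept its sign but ranged from -1.27 to -0.042 without single libraries. The sign turned for FZD8 with a pseudocount of 0.1 (0.0018) and for SFRP1 under quantile (-0.043) and upper-quartile scaling (-0.040). Without single libraries it turned within these ranges of the log2 fold change: DKK3 -0.56 to 0.0095, FZD2 -0.95 to 0.15, FZD3 -0.11 to 0.39, FZD4 -0.068 to 0.33, FZD8 -0.79 to 0.78, FZD9 -0.21 to 0.51, LRP5 -0.32 to 0.42, LRP6 -0.28 to 0.015, SFRP1 -0.076 to 0.080, WNT11 -0.30 to 0.29 and WNT5B -0.67 to 0.77.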
